A study of Mus musculus with 12 samples.

Results

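The 40 genes described here encode DNA repair enzymes and damage checkpoint kinases of the mouse. They were chosen by gene symbol, with earlier results of these data known, and they are 40 of the 55202 genes in the table of counts. They fall into mismatch repair (3 genes), nucleotide excision repair (10), base excision and single-strand break repair (7), double-strand break and crosslink repair (11), translesion synthesis and direct reversal (5) and the damage checkpoint kinases (4). The count filter passed 38 of them, and Lig4 and Palb2 were not tested.

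RNA was sequenced from cells labelled as tumor-associated macrophages (TAMs), taken from tumors that the clones DMBA3-4 or DMSO3-1 formed in Rag1-/- mice. Each clone was grown from 1 cell of a PyMt line, which comes from a mammary tumor of a mouse with polyomavirus middle T under the MMTV promoter and carries mCherry and luciferase. DMBA3-4 came from cells treated with the carcinogen 7,12-dimethylbenz[a]anthracene (DMBA), which forms bulky adducts on DNA, and DMSO3-1 from cells given the solvent alone. The treatment was in culture, before cloning and injection, and the paper describes no DMBA treatment of the Rag1-/- hosts. All hosts lacked Rag1 and so had no mature T or B cells, their age was not given, and the cells were sorted by CD45, CD11b and F4/80. There were 6 libraries per group, and because each group rests on 1 clone, the treatment and the clone cannot be told apart. The sources used here do not say that each library came from its own mouse, and the spread behind every p-value may therefore be technical.

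DNA repair is divided by the kind of damage. Mismatch repair corrects errors of replication, nucleotide excision repair cuts out bulky adducts such as those of DMBA, and base excision repair removes single altered bases. Double-strand breaks are rejoined by end joining or copied from the sister strand, translesion polymerases copy across damage that is still in place, and Atm, Atr, Chek1 and Chek2 are kinases that halt the cell cycle while damage is present.

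The 6 libraries labelled with DMBA exposure are called DMBA3-4-labelled below and the 6 labelled with DMSO exposure DMSO3-1-labelled, since the series' description names these clones as its groups. Against the DMSO3-1-labelled libraries, the DMBA3-4-labelled ones had 9 of the tested repair genes higher (Mgmt, Ddb2, Ercc3, Parp2, Lig1, Xrcc6, Rad50, Nbn and Chek2), 6 lower (Ddb1, Ercc2, Xpa, Lig3, Polh and Atm) and 23 not called at an adjusted p under 0.05. Mgmt, the direct reversal enzyme for O6-alkylguanine, was the gene with the widest gap, with 29 to 85 counts per library against 0 or 1. The called share was 39.5%, and over all 11511 genes tested it was 60.1%. In single directions 23.7% of the tested repair genes were higher and 15.8% lower, against 29.9% and 30.2% of all genes. Groups did not overlap for 4 of the 38 (10.5%), against 32.2% of all genes. The median log2 fold change was 0.11 for the repair genes and 0.00 for all genes, and the median of its size 0.34 and 0.57. Only 5 repair genes (13.2%) differed by more than 1 on the log2 scale, against 24.8% of all genes. The calls came from edgeR's quasi-likelihood test with Benjamini-Hochberg adjustment over all genes tested, as did every adjusted p given below, except that ranges over alternatives also hold DESeq2 and limma-voom.

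**Figure D1:**
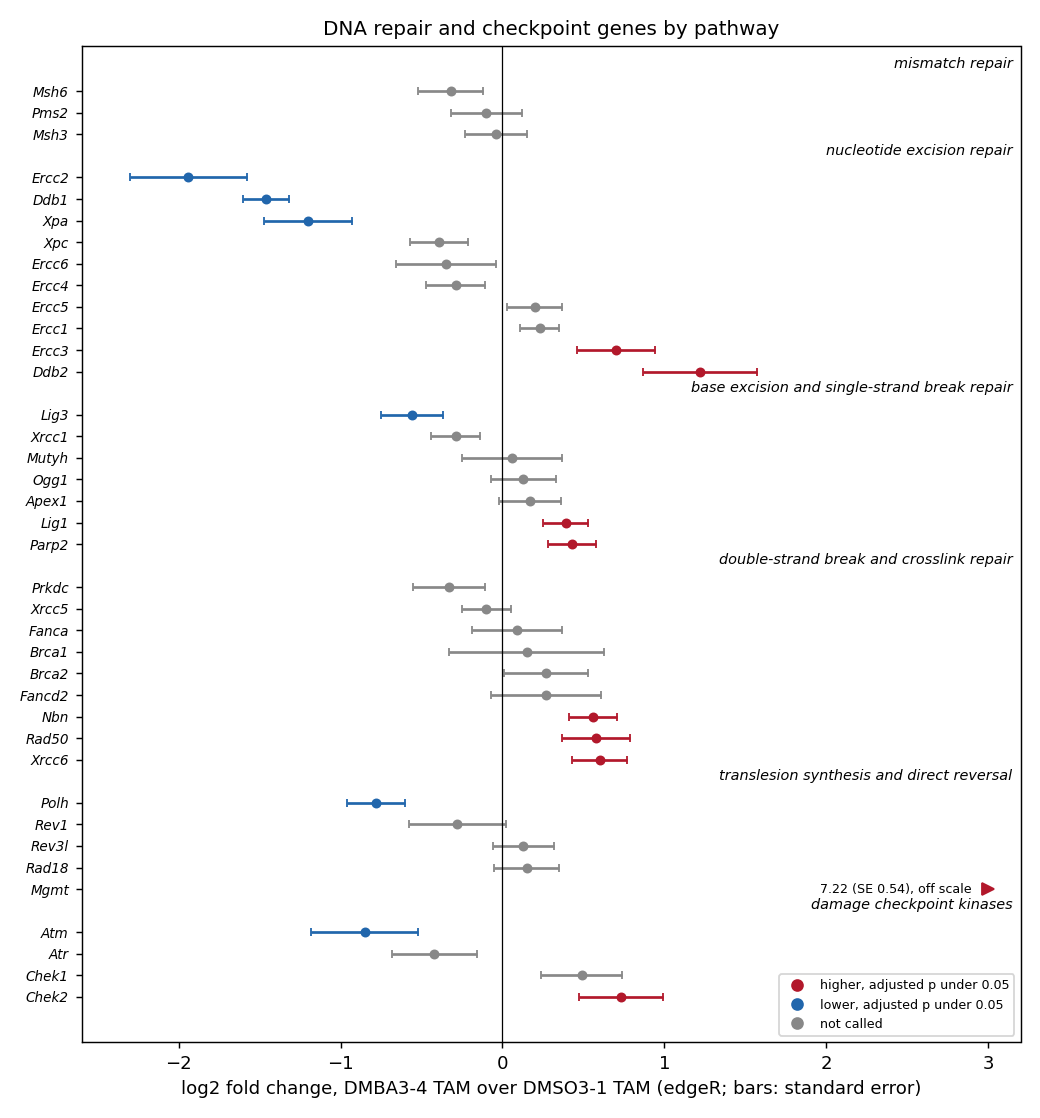
Log2 fold change of the 38 tested genes, DMBA3-4 TAM over DMSO3-1 TAM (horizontal axis), grouped by pathway, with bars for the standard error and colours for the call. The 9 higher and 6 lower genes are spread over 5 pathways, mismatch repair holds none, and Mgmt at 7.22 lies off the scale.

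Library totals were 3040452 to 4632817 counts in the DMBA3-4-labelled libraries and 2752005 to 3978901 in the DMSO3-1-labelled ones. The cell type on the label was not borne out by its markers. Adgre1 (F4/80) and Itgam (CD11b) had 0 to 3 counts per library, Ptprc (CD45) had 0 to 7, and the whole list of 14 macrophage genes held 0.00483% to 0.00875% of counts in the first group and 0.00417% to 0.00783% in the second. None of the 14 was at 0 in all libraries, and 2 of the 5 tested (C1qb and Ctss) were higher in the DMBA3-4-labelled libraries. Fibroblast markers, mostly Col3a1, Dcn and Pdgfrb, held 0.0975% to 0.166% and 0.143% to 0.20%. Epithelial markers, nearly all Krt8 and Krt18, held 0.152% to 0.215% and 0.10% to 0.173%. Some other genes of these 2 lists were low, with 11 to 44 counts per library for Col1a1, 0 to 4 for Col1a2 and 0 for Epcam. Others were not. Pdgfra had 121 to 239 counts in the DMBA3-4-labelled libraries and 94 to 166 in the DMSO3-1-labelled ones, and Lum had 182 to 488 and 29 to 88. Within these lists Lum was higher, with a log2 fold change of 2.26 (adjusted p = 1.45e-05), as was Krt8 at 0.57 (adjusted p = 0.00698). Pdgfrb was lower at -1.39 (adjusted p = 1.33e-06), as was Cdh1 at -4.88 (adjusted p = 4.68e-06) on at most 24 counts per library. The part of these markers in the results below was not tested, and the libraries are named as labelled. In bulk RNA, fewer cells of a type and less RNA per cell cannot be told apart. Of the DMSO3-1-labelled libraries, replicates 1 and 6 had stood apart from replicates 2 to 5 in earlier results of these data. Among the 40 repair genes they lay outside the range of replicates 2 to 5 for 10, above it for 4 (Ercc3, Apex1, Xrcc5 and Xrcc6) and below it for 6 (Xpa, Lig3, Prkdc, Polh, Atm and Atr), and these 10 are given without either set. No count over all genes is set beside the 10, and some genes would be split in this way by chance. The 10 can therefore not be read as particular to the repair genes.

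The promoters of Mgmt, Ddb1 and Ercc2, the 3 genes with the largest differences, are shown. None of the 3 overlapped between groups, and neither did Ddb2, which had no matched window. Each window is from RefSeq on GRCm38.p6 and runs from 250 bases before the start of transcription to 50 after it, 5′ to 3′ along the gene, with CG pairs in capitals. The windows are chr7:136894336-136894635 for Mgmt, chr19:10605347-10605646 for Ddb1 and chr7:19381767-19382066 for Ercc2, all on the plus strand, and a second Mgmt window of 3 CG pairs, farther along the gene, is not shown.
Mgmt: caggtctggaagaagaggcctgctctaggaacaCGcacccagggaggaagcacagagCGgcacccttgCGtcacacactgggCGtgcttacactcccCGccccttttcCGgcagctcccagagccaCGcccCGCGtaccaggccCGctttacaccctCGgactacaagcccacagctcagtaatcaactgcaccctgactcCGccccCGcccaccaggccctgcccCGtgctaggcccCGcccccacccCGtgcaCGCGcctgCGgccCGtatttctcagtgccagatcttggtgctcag
Ddb1: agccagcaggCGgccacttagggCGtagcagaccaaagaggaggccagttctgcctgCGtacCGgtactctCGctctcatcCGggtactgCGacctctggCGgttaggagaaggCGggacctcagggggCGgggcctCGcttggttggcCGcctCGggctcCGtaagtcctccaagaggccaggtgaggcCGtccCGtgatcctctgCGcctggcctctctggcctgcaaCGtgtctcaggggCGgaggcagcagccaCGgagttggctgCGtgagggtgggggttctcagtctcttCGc
Ercc2: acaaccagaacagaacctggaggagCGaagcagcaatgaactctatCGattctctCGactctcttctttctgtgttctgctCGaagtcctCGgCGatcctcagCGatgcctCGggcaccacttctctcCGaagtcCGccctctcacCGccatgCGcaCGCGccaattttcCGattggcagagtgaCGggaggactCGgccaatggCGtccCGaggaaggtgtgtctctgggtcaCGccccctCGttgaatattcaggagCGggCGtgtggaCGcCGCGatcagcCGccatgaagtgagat
The Mgmt window held 20 CG pairs, the Ddb1 window 22 and the Ercc2 window 27, where the median over all 32851 promoter windows of this length was 7. These counts were above those of 73.5%, 76.9% and 84.5% of all windows, in that order. Windows of repair genes not called held from 2 CG pairs (Mutyh) to 51 (Rev1), so such counts are not particular to these 3 genes. The Mgmt window held 4 GC boxes (GGGCGG or CCGCCC), the Ddb1 window 2 and the Ercc2 window 1. A GC box was found in 35.7% of all windows. DNA methylation was not measured in these samples.

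In nucleotide excision repair, 2 of the 10 genes were higher (Ddb2 and Ercc3), 3 were lower (Ercc2, Ddb1 and Xpa) and 5 were not called. Beside this and every later count by pathway stand the shares over all genes tested, 29.9% higher and 30.2% lower. The median log2 fold change was -0.32. The pathway held 4 of the 5 repair genes that differed by more than 1 on the log2 scale.

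Ddb1 and Ddb2 form the UV-damaged DNA binding complex, which finds distorted DNA, and Ddb1 is also the adaptor of the Cul4 ubiquitin ligases. Ddb1 (chr19:10605327-10629819) had a lowest, median and highest level of 259, 303 and 454 CPM (counts scaled to library size and TMM factor) in the DMBA3-4-labelled libraries and 755, 911 and 1010 CPM in the DMSO3-1-labelled ones. No library of one group reached the other. Its log2 fold change was -1.46 (SE 0.14, adjusted p = 4.52e-07), which is 2.76-fold lower. Per kilobase of exon, Ddb1 had the highest level of the 40 genes in both groups, with means of 50.8 and 140 CPM per kilobase. Ddb2 ran the other way, with 4.2, 5.69 and 8.18 CPM against 0.605, 2.88 and 3.93 CPM. Its groups were also separate, though on 17 to 34 counts per library against 2 to 11. Ddb2 was 2.33-fold higher (log2 fold change 1.22, SE 0.35, adjusted p = 0.00647), and without DMSO3-1 replicates 2 to 5, which leaves 2 libraries in that group, it was 0.91 (adjusted p = 0.0985, from 0.00331 to 0.0985 over the 24 alternatives tried).

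The other parts of the ligase divided in the same manner. The scaffolds Cul4a and Cul4b were lower, by -0.85 (SE 0.13, adjusted p = 5.95e-05) and -0.52 (SE 0.15, adjusted p = 0.00668) on the log2 scale. Rbx1, the small RING subunit that recruits the ubiquitin-conjugating enzyme, was higher, with 208 to 318 CPM against 101 to 163 CPM and a log2 fold change of 1.06 (SE 0.14, adjusted p = 1.32e-05). All 5 genes of the ligase were called, 2 higher and 3 lower, where 60.1% of all genes tested were called. The ligase was chosen for display after values were seen.

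Ercc2 and Ercc3 encode the XPD and XPB helicases of TFIIH, the complex that opens DNA around a lesion and at the start of transcription. Ercc2 (chr7:19382010-19395694) had 2.21, 4.08 and 13.1 CPM in the DMBA3-4-labelled libraries and 16.2, 19.5 and 25.8 CPM in the DMSO3-1-labelled ones. The groups did not overlap, although DMBA3-4 replicate 6 came close. Its log2 fold change was -1.94 (SE 0.36, adjusted p = 0.000265), or 3.82-fold lower. Ercc3 had 49.3, 59.2 and 67.4 CPM against 16.1, 35.5 and 57.0 CPM, a log2 fold change of 0.70 (SE 0.24, adjusted p = 0.0213), with overlap. DMSO3-1 replicates 1 and 6 had 51.6 and 57.0 CPM of Ercc3 and the other 4 had 16.1 to 42.5 CPM, and without those 4 the log2 fold change was 0.07 (adjusted p = 0.744). Without replicates 1 and 6 it was 1.13 (0.000211), and over all alternatives the adjusted p ran from 6.31e-05 to 0.744. Of the 10 TFIIH subunits, Ercc2 was the only one lower, where 29.9% of all genes tested were higher and 30.2% lower. Besides Ercc3, 7 were higher (Gtf2h2, Gtf2h3, Gtf2h4, Gtf2h5, Cdk7, Ccnh and Mnat1), at log2 fold changes from 0.36 for Ccnh to 0.69 for Gtf2h5. Gtf2h1 was at 0.00 (SE 0.13, adjusted p = 0.986).

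**Figure D2:**
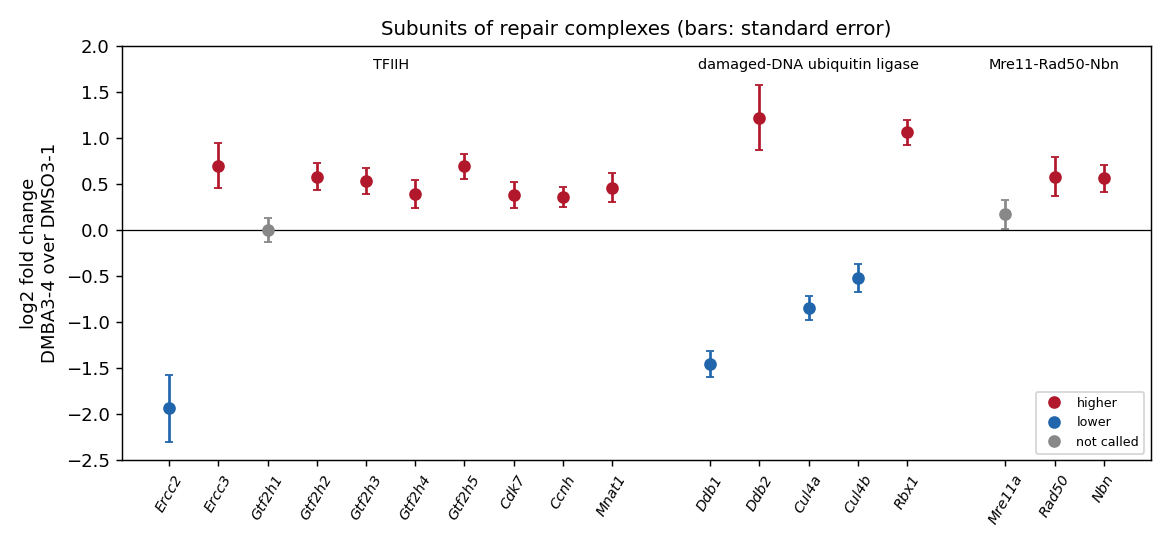
Log2 fold change with its standard error (vertical axis) for the subunits of TFIIH, the damaged-DNA ubiquitin ligase and the Mre11-Rad50-Nbn complex. Ercc2 at -1.94 is the only lower subunit of TFIIH, Ddb1, Cul4a and Cul4b lie below 0 while Ddb2 and Rbx1 lie above it, and Rad50 and Nbn are higher.

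Xpa, the scaffold that verifies the lesion, had 7.01, 9.37 and 12.7 CPM against 10.2, 24.6 and 35.1 CPM. Its log2 fold change was -1.20 (SE 0.27, adjusted p = 0.00128), or 2.30-fold lower, and the groups overlapped. DMSO3-1 replicate 6, at 10.2 CPM, lay within the other group and replicate 1, at 13.9 CPM, just above it, where the other 4 had 23.5 to 35.1 CPM. Without replicates 2 to 5 the log2 fold change was -0.36 (adjusted p = 0.342), without 1 and 6 it was -1.49 (1.61e-05), and the alternatives as a whole gave 4.95e-06 to 0.342. The genes not called were the damage sensor Xpc at -0.39 (adjusted p = 0.0723) and the incision genes Ercc1 at 0.23, Ercc4 at -0.29 and Ercc5 at 0.20. Also not called was Ercc6, which acts on lesions that stall RNA polymerase II, at -0.35. The 17 other genes of the pathway all passed the filter, and 9 were higher and 3 lower. Cetn2, which binds Xpc, was higher by 1.11 (adjusted p = 0.000177). Rad23b, another partner of Xpc, was lower by -1.20 (adjusted p = 0.025), with 23.8 to 144 CPM among the DMSO3-1-labelled libraries.

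Several of these genes share exon sequence with a neighbour on the opposite strand (GENCODE M21), and whether the counting used strand was not given in the sources used here, so reads of the pair cannot be told apart there. Of the 40 repair genes, 19 share exonic bases with another annotated gene, 7 of the 15 called among them. Ercc2 shares 24.6% of its exonic bases with Gm26852 (0 to 10 counts per library) and 17.8% with Klc3 (0 to 27 counts). Ddb2 shares 23.8% with Acp2, whose log2 fold change was 0.14, and Ddb1 shares 5.12% with Tkfc, at -2.48 on 11 to 170 counts. The others called are Lig3 with Rffl (25.1%, Rffl at -0.89), Xrcc6 with Desi1 (7.69%, Desi1 at -0.97), Lig1 with Zswim9 (5.79%) and Xpa with Ncbp1 (4.07%).

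In the direct reversal and translesion group, Mgmt was higher, Polh was lower and the other 3 genes were not called. Mgmt encodes O6-methylguanine-DNA methyltransferase, which takes the alkyl group from guanine onto its own cysteine and is used up in doing so. The DMBA3-4-labelled replicates 1 to 6 had 37, 45, 85, 55, 29 and 52 counts of Mgmt, or 9.11, 10.8, 17.9, 18.4, 7.82 and 12.9 CPM. In the DMSO3-1-labelled libraries, replicate 2 had 1 count (0.304 CPM) and the other 5 had 0. Every library of the first group was far above every library of the second. The summed counts were 303 and 1, a ratio of 249 after scaling by library size, with an exact 95% interval of 44.4 to 9880 that covers counting error only. The fitted log2 fold change was 7.22 (SE 0.54, adjusted p = 2.97e-08). This fitted value depends on the prior count and is no bound, and it ran from 5.98 to 8.59 over the other settings tried. Mgmt passed the count filter through the DMBA3-4-labelled libraries alone. It was among 22 genes of the whole table with at least 29 counts in every library of that group and at most 1 in every library of the other.

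Mgmt lies at chr7:136894614-137130266 on the plus strand (GENCODE M21, GRCm38). Within 3 Mb of its ends there are 37 protein-coding genes with Mgmt, and of the 19 that were tested 10 were higher and 5 lower, Mgmt included. Over all genes tested 29.9% were higher and 30.2% lower. The tested genes that start nearest to it were 9430038I01Rik, higher by 1.03 (adjusted p = 0.00239), Glrx3, a glutaredoxin of iron-sulfur handling, higher by 0.56 (adjusted p = 0.00045), and on the other side the proliferation marker Mki67, higher by 0.45 (adjusted p = 0.019), and the receptor phosphatase Ptpre, lower by -1.77 (adjusted p = 3.26e-06). Glrx3 had 94.5 to 127 CPM in the DMSO3-1-labelled libraries, where Mgmt was at 0 or 1 count. The neighbourhood was chosen for display after the value of Mgmt was seen.

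**Figure D3:**
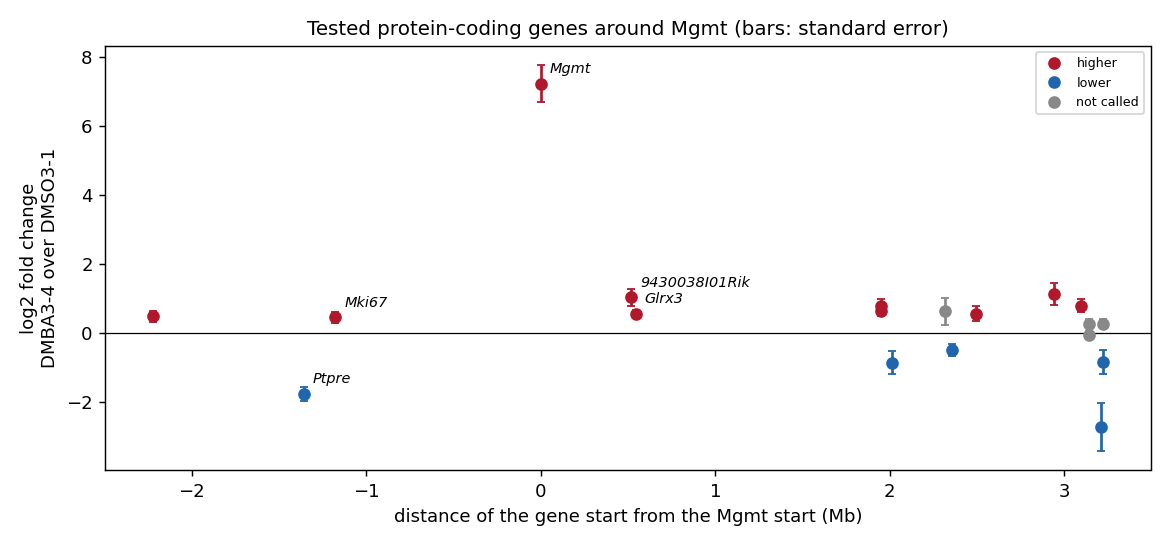
Log2 fold change with its standard error (vertical axis) of the tested protein-coding genes around Mgmt, by the distance of each gene start from the Mgmt start in Mb (horizontal axis). Mgmt at 7.22 stands alone, and of the genes shown beside it 9 are higher, 5 lower and 4 not called.

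Polh, the polymerase eta that copies past UV dimers, had 14.9, 18 and 21.4 CPM in the DMBA3-4-labelled libraries and 20.2, 29.9 and 42.0 CPM in the DMSO3-1-labelled ones. The groups overlapped at their edges, and Polh was 1.72-fold lower (log2 fold change -0.78, SE 0.18, adjusted p = 0.00159). DMSO3-1 replicates 1 and 6 had the lowest levels of that group, 20.2 and 25.3 CPM, and without replicates 2 to 5 the log2 fold change was -0.38 (adjusted p = 0.161). Without replicates 1 and 6 it was -0.94 (0.000121), the lowest adjusted p of any alternative. Rev1, the scaffold of the translesion polymerases, was at -0.28 (SE 0.30), Rev3l, the catalytic subunit of polymerase zeta, at 0.13 (SE 0.19) and Rad18, the ligase that marks PCNA, at 0.15 (SE 0.20). Rev1 shares 26.6% of its exonic bases with Eif5b on the opposite strand. All 11 other genes of this group were tested, and 3 were higher and 2 lower. Polk, polymerase kappa, which copies past bulky adducts, was lower, with 13.9 to 28.3 CPM against 34.8 to 57.2 CPM (log2 fold change -1.06, adjusted p = 0.000249). Mad2l2, the accessory subunit of polymerase zeta, was higher by 0.83 (adjusted p = 0.0014), as was the alkyl lesion dioxygenase Alkbh3 by 0.64 (adjusted p = 0.00516).

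**Figure D4:**
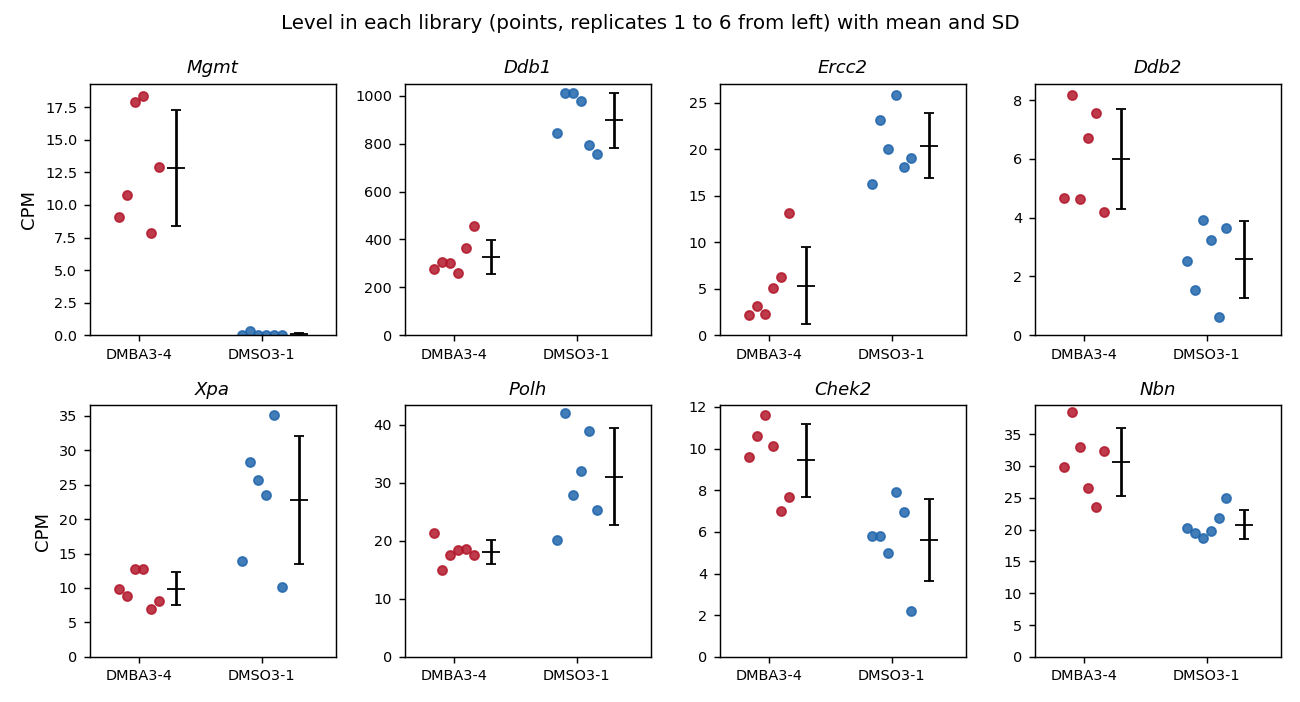
CPM of 8 repair genes in each library (points, replicates 1 to 6 from the left), with the mean and SD of each group of 6 beside them. Mgmt, Ddb1, Ercc2 and Ddb2 do not overlap between groups, and Xpa, Polh, Chek2 and Nbn do.

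The 3 mismatch repair genes were not called. Msh3 takes part in the recognition of loops, Msh6 in that of single mismatches, and Pms2 is a nuclease that cuts the strand to be replaced. Msh3 was at -0.04 (SE 0.19, adjusted p = 0.861), Pms2 at -0.10 (SE 0.22, adjusted p = 0.723) and Msh6 at -0.32 (SE 0.20, adjusted p = 0.18) on the log2 scale. Of the 13 other tested genes of the pathway 7 were higher and none was lower (53.8% called, against 60.1% of all genes). These 7 are replication proteins that serve several pathways: the sliding clamp Pcna, the clamp loader subunits Rfc2, Rfc4 and Rfc5, and the single-strand binding proteins Rpa1, Rpa2 and Rpa3. Pcna had 80.9 to 131 CPM against 43.4 to 85.7 CPM (log2 fold change 0.88, adjusted p = 0.000367), and Rfc2 110 to 140 CPM against 55.1 to 85 CPM (0.92, adjusted p = 1.19e-05). Rfc4 was higher by 0.83 (adjusted p = 0.000816).

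Of 20 proliferation genes, 12 were called, 10 of them higher and 2 lower in the DMBA3-4-labelled libraries. Their median log2 fold change was 0.38. Over all genes tested 60.1% were called, 29.9% higher and 30.2% lower, so the called share of this list was not above that of all genes. Rrm2, which makes deoxynucleotides, was higher by 0.73 (adjusted p = 0.00026) and the mitotic kinase Plk1 by 0.65 (adjusted p = 0.00282), while the spindle checkpoint kinase Bub1 was lower by -1.02 (adjusted p = 0.000237). Together the 20 genes held 0.108% to 0.172% of counts against 0.103% to 0.129%. Their part in the repair gene results was not tested.

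In base excision and single-strand break repair, Parp2 and Lig1 were higher, Lig3 was lower and 4 of the 7 genes were not called. The differences were small, none of them over 1 on the log2 scale, and in each the groups overlapped. Lig3, the ligase that works with Xrcc1, had 15.5, 23.5 and 27.5 CPM against 23.1, 32.6 and 47.8 CPM (log2 fold change -0.56, SE 0.19, adjusted p = 0.0205). Lig1, the replicative ligase, had 46.8, 59.8 and 78.4 CPM against 38.4, 45.5 and 56.8 CPM (0.39, SE 0.14, adjusted p = 0.0265). The 2 ligases that seal the last nick thus differed in opposite directions. Parp2, which senses single-strand breaks, had 39.0, 45.0 and 66.1 CPM against 29.0, 36.3 and 41.6 CPM (0.43, SE 0.15, adjusted p = 0.0226).

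Each of these 3 calls was lost with some single library left out. Lig1 lost its call without DMBA3-4 replicate 2 (adjusted p = 0.0732) or 3 (0.0502) and without DMSO3-1 replicate 4 (0.0635) or 5 (0.053), Lig3 without DMBA3-4 replicate 1 (0.0506) or DMSO3-1 replicate 2 (0.0605), and Parp2 without DMBA3-4 replicate 4 (0.0576) or 5 (0.0504). Without DMSO3-1 replicates 2 to 5 the log2 fold changes were -0.15 (adjusted p = 0.615) for Lig3, 0.26 (0.283) for Lig1 and 0.27 (0.316) for Parp2, the highest adjusted p of each gene over the 24 alternatives, whose lowest were 0.00289, 0.0131 and 0.0104. The log2 fold change of Lig3 was -0.73 (adjusted p = 0.00289) without replicates 1 and 6. Not called were the glycosylases Ogg1, which removes 8-oxoguanine, at 0.13, and Mutyh, which removes adenine paired with it, at 0.06, the endonuclease Apex1 at 0.17 and the scaffold Xrcc1 at -0.29. Apex1 turned with the DMSO3-1 libraries used, at 0.38 (adjusted p = 0.0935) without replicates 1 and 6 and -0.20 (0.497) without replicates 2 to 5, and its adjusted p was 0.0851 to 0.704 over the alternatives. Apex1 shares 61.7% of its exonic bases with Pip4p1 on the opposite strand. Of the 16 other tested genes 3 were higher and 2 lower. Aptx, which frees ends left by a failed ligation, had 45.0 to 57.7 CPM against 20 to 27.1 CPM (log2 fold change 1.20, adjusted p = 1.39e-06). Parg, which takes poly(ADP-ribose) apart, had 0.809 to 7.17 CPM against 5.49 to 30.2 CPM (-2.35, adjusted p = 0.000527), and the thymine glycosylase Tdg was lower by -0.66 (adjusted p = 0.00428).

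In double-strand break and crosslink repair, 3 of the 9 tested genes were higher (Xrcc6, Rad50 and Nbn), none was lower, and 6 were not called. Rad50 and Nbn belong to the complex with Mre11a that binds broken ends and activates Atm. Nbn had 23.5, 31.1 and 38.5 CPM in the DMBA3-4-labelled libraries and 18.6, 19.9 and 24.9 CPM in the DMSO3-1-labelled ones (log2 fold change 0.56, SE 0.15, adjusted p = 0.00396). Rad50 had 28.9, 33.9 and 43.2 CPM against 10.9, 24.7 and 33.2 CPM (0.58, SE 0.21, adjusted p = 0.0264). Both were close to 1.5-fold higher with overlap between the groups, and Mre11a was at 0.17 (SE 0.16, adjusted p = 0.368). Rad50 lost its call without DMBA3-4 replicate 3 (adjusted p = 0.062) or DMSO3-1 replicate 2 (0.0583), and without DMSO3-1 replicates 2 to 5 Rad50 was at 0.43 (0.101) and Nbn at 0.40 (0.153). Over the alternatives the adjusted p ran from 0.0049 to 0.101 for Rad50 and from 0.00129 to 0.153 for Nbn.

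Xrcc5 and Xrcc6 encode Ku80 and Ku70, the subunits of the ring that caps ends for end joining. Xrcc6 had 47.3, 52.8 and 64.7 CPM against 25.3, 33.1 and 50.1 CPM, a log2 fold change of 0.60 (SE 0.17, adjusted p = 0.0064), and Xrcc5 was at -0.10 (SE 0.15, adjusted p = 0.577). DMSO3-1 replicate 6, at 50.1 CPM of Xrcc6, overlapped the other group and replicate 1, at 45.7 CPM, lay just under it, against 25.3 to 35.7 CPM in the other 4. Without those 4 the log2 fold change was 0.12 (adjusted p = 0.578), without replicates 1 and 6 it was 0.89 (8.1e-05), and these were the highest and lowest of the alternatives. In Xrcc5 the same replicates were also the highest of their group, at 40.6 and 42.9 CPM against 24.5 to 33.7 CPM, and its log2 fold change was 0.08 (adjusted p = 0.644) without them and -0.43 (0.0522) without the other 4, and its adjusted p was 0.0522 to 0.897 over the alternatives. Prkdc, the kinase that joins Ku at the end, was at -0.33 (SE 0.22, adjusted p = 0.213). DMSO3-1 replicates 1 and 6 had 12.1 and 15.4 CPM of Prkdc and the other 4 had 20.7 to 24.9 CPM, and the log2 fold change was -0.51 (adjusted p = 0.0537) without replicates 1 and 6 and 0.12 (0.773) without the other 4, and its adjusted p was 0.052 to 0.773 over the alternatives. Lig4, the ligase of end joining, had only 2 to 16 counts per library against 8 to 20 and was not tested. With no count filter its log2 fold change was -0.92 (SE 0.41, adjusted p = 0.0897), and over the 14 alternatives that kept it the adjusted p ran from 0.0353 to 0.104. Its partners Xrcc4 and Nhej1 were higher, by 0.43 (adjusted p = 0.044) and 1.18 (adjusted p = 0.00491).

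Brca1, Brca2 and Palb2 serve homologous recombination at resected ends. Brca1 was at 0.15 (SE 0.48, adjusted p = 0.8), with 5.66, 7.25 and 12.7 CPM against 0, 7.77 and 12.9 CPM. DMSO3-1 replicate 5 had no Brca1 count at all, in a group whose other 5 libraries had 19 to 36. Brca2 was at 0.27 (SE 0.26), and Palb2, with 3 to 29 counts against 6 to 9, was not tested. The crosslink repair genes Fanca, part of the Fanconi core ligase, and Fancd2, its substrate, were at 0.09 (SE 0.28) and 0.27 (SE 0.34), with means below 5 CPM in both groups. Of 32 other tested genes of this pathway 7 were higher and 7 lower. Fancl, the catalytic subunit of that core ligase, and Ube2t, its conjugating enzyme, were higher by 1.21 (adjusted p = 3.1e-05) and 1.14 (adjusted p = 6.99e-05), and neither overlapped between groups. Mdc1, which binds phosphorylated H2AX around a break, was lower, with 4.68 to 13.8 CPM against 22.2 to 41.4 CPM (log2 fold change -1.74, adjusted p = 4.67e-05).

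Among the checkpoint kinases, Chek2 was higher, Atm was lower, and Atr and Chek1 were not called. Atm answers double-strand breaks and activates Chek2, and Atr answers stretches of single-strand DNA and activates Chek1. Atm had 2.43, 5.71 and 7.70 CPM in the DMBA3-4-labelled libraries and 5.12, 8.77 and 17.3 CPM in the DMSO3-1-labelled ones (log2 fold change -0.85, SE 0.33, adjusted p = 0.0338). Chek2 had 7.01, 9.83 and 11.6 CPM against 2.20, 5.79 and 7.92 CPM (0.73, SE 0.26, adjusted p = 0.0218). Both overlapped between groups. Chek1 was at 0.49 (SE 0.25, adjusted p = 0.102) and Atr at -0.42 (SE 0.26, adjusted p = 0.18).

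Atm lost its call without DMBA3-4 replicate 1 (adjusted p = 0.0717), 3 (0.0567) or 5 (0.0685) and without DMSO3-1 replicate 2 (0.113) or 4 (0.0705), and Chek2 without DMBA3-4 replicate 3 (0.0506). DMSO3-1 replicates 1 and 6 had 5.12 to 6.06 CPM of Atm against 7.86 to 17.3 CPM in the other 4, and 9.59 to 13.2 CPM of Atr against 19.3 to 23.9 CPM. Atm was at -1.10 (adjusted p = 0.0059) without replicates 1 and 6 and at -0.11 (0.85) without replicates 2 to 5. Atr turned in direction, at -0.65 (adjusted p = 0.0242) without replicates 1 and 6 and 0.24 (0.602) without replicates 2 to 5. Chek2 lost its call without replicates 1 and 6 (adjusted p = 0.0561). Without DMSO3-1 replicate 5, Chek1 was called higher (0.76, adjusted p = 0.00402). Over the alternatives the adjusted p ran from 0.0059 to 0.85 for Atm, 0.00753 to 0.0561 for Chek2, 0.0242 to 0.602 for Atr and 0.00402 to 0.204 for Chek1. Of the 15 other checkpoint genes, all tested, 2 were higher and 3 lower. Tipin, which holds the fork with Timeless, was higher by 0.80 (adjusted p = 0.000366), and the phosphatases Cdc25a and Cdc25b, which the checkpoint kinases inhibit, were lower by -0.77 (adjusted p = 0.003) and -0.68 (adjusted p = 0.000698), with no overlap between groups. Over all 6 pathways, 104 of the 110 other genes were tested. Of these, 31 were higher and 17 lower (46.2% called, against 60.1% of all genes).

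Promoters were searched for an E2F-type motif (TTTCCCGC, TTTGGCGC, TTTGCCGC or TTTCGCGC, on either strand) because E2F factors drive many replication and repair genes. RefSeq windows were matched for 32 of the 40 genes, and 6 of these (18.8%) held the motif, against 2.26% of all windows and 2.6% of all genes with a window. Every form of the motif holds a CG pair, and these backgrounds were not matched for CG pairs. The shares therefore cannot show an enrichment of the motif itself. The 6 stretches are printed below along their genes with the first match to the motif, or to its reverse complement, in capitals. In Msh3 a match to GCGCGAAA overlaps the first one and is not marked. They lie at chr5:110839821-110839848 (Chek2), chr7:13278842-13278869 (Lig1), chr15:82016313-82016340 (Xrcc6), chr5:150522443-150522470 (Brca2), chr13:92355188-92355215 on the minus strand (Msh3) and chr17:87975055-87975082 (Msh6), the others on the plus strand.
Chek2: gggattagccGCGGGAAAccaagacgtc
Lig1: gccaaagtgcGCGCGAAAtctgtgtggc
Xrcc6: gggggtggaaGCGGGAAAtgcgagtggg
Brca2: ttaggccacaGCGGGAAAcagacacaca
Msh3: tgccgtcaagTTTGGCGCgaaatcgcag
Msh6: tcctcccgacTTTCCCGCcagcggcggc
Chek2, Lig1 and Xrcc6 are 3 of the 5 matched genes that were higher, Brca2, Msh3 and Msh6 are 3 of the 19 matched genes that were not called, and none of the 6 matched genes that were lower held the motif. The higher genes Ddb2, Ercc3, Rad50 and Nbn had no matched window, so the split leaves them out. A match describes these letters only, and no binding was measured.

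Together the 40 repair genes held 0.0988% to 0.141% of counts in the DMBA3-4-labelled libraries and 0.149% to 0.177% in the DMSO3-1-labelled ones, and Ddb1 made up the difference. Without Ddb1 the other 39 summed to 759 to 887 CPM (mean 834) against 744 to 836 CPM (mean 791), ranges that overlap. A second deposited table gives the authors' mean normalized count over all of their libraries, with no value per library. All 40 genes are in it, from 7.10 for Xrcc5 to 643 for Ddb1 with a median of 58.2, against a median of 0.891 over its 37140 named genes, and Mgmt had a mean of 36.5. The 14 macrophage markers held 4.72% of the summed means in that table and the fibroblast markers 0.00257%, so its makeup was unlike that of the count table, and its samples carry other names than the count columns.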

How the data were processed

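Gene counts were deposited by the authors as whole numbers that were not normalized, for the 6 DMBA3-4-labelled and 6 DMSO3-1-labelled libraries (build GRCm38, mm10, per the submitters' processing notes). Which aligner, counter and strand setting made them is not given in the sources used here. As for the libraries, GEO's labels name RNeasy columns and a SMARTER kit, while the paper's methods name TCL lysis and SmartSeq2. A second deposited table gave a signal, the authors' mean normalized count, which was used as a level only. Its columns of the authors' comparison (fold change, standard error, statistic and p-values) were not used.

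In the counts, 19 entries without a gene name (0.0893% to 0.128% of counts) were left out. Genes were filtered with filterByExpr, scaled by TMM and tested with the robust quasi-likelihood test of edgeR 4.0.16 in R 4.3.3, with Benjamini-Hochberg adjustment over 11511 genes and a threshold of 0.05. The biological coefficient of variation was 23.3%. No other columns of values per sample were present. No pair of libraries within a group agreed within sampling noise (lowest chi-square per gene 2.65), and the test was checked on simulated counts. The simulation had few changed genes, equal numbers up and down, a single dispersion and no libraries that stood apart. It therefore cannot vouch for data like these, in which most genes were called. Alternatives were DESeq2 1.42.0, limma-voom (limma 3.58.1, the package named in the methods) with and without quality weights, other scalings and filters, a threshold of 0.01, a replicate block and libraries left out.

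The repair genes and gene lists were chosen with earlier results of these data known. Lowest, median and highest CPM are given for the 3 largest changes among called repair genes of each pathway and any called change over 1 on the log2 scale, and counts for genes under the filter. Of the other genes, up to 3 called per pathway with a mean of at least 10 CPM are named. Complexes, motifs, the neighbours of Mgmt and further genes named beside their pathway, among them Brca1, were chosen after values were seen. Some genes of the lists are not reported here.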

Additional observations from a re-analysis of the deposited data

Results flagged for a closer look

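In 79 groups of 6 libraries (the 40 repair genes in each group, less 1 group of Mgmt at 0 or 1 count), 4 held a library far from the other 5 by Dixon's criterion, where chance gives about 1 in 20. DMBA3-4 TAM replicate 6 had 13.1 CPM of Ercc2 (53 counts), above 2.21 to 6.20 CPM in the rest of its group. DMSO3-1 TAM replicate 5 had 2.72 CPM of Ercc6 (9 counts), below 10.1 to 12.5 CPM. DMBA3-4 TAM replicate 2 had 7.22 CPM of Rev1 (30 counts), below 10.6 to 12.1 CPM. DMSO3-1 TAM replicate 5 had 17.2 CPM of Chek1 (57 counts), above 6.08 to 9.15 CPM.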

How the results depend on the processing

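The 15 calls were kept under RLE, upper quartile and library size scaling, with no filter on low counts, at 1 CPM in 6 libraries, and with DESeq2, limma-voom and limma-voom with quality weights, which called 6848 to 8354 genes against 6918. Some of these settings added calls. Limma-voom with quality weights added Xpc (adjusted p = 0.00899), Ercc1 (0.0243), Xrcc1 (0.0364) and Chek1 (0.018), for 11 higher and 8 lower. The filter of 1 CPM in 6 libraries added Lig4 (adjusted p = 0.0476). No call changed direction under any alternative. At an adjusted p under 0.01, 5357 of the 11511 genes tested and 8 of the 38 tested repair genes (4 higher and 4 lower) were called. Of the 110 other repair genes, 104 of them tested, 30 were called at that threshold, against 48. Without DMSO3-1 replicates 2 to 5, 4605 genes, 4 repair genes (2 higher, 2 lower: Mgmt, Chek2, Ddb1 and Ercc2) and 24 of the other repair genes were called. With single libraries left out, 6490 to 7139 genes and 11 to 19 repair genes were called, 6 to 9 higher and 4 to 10 lower, and 41 to 51 of the other repair genes. The 10 lower came without DMSO3-1 replicate 5, which added Xpc, Ercc4, Ercc6 and Xrcc1. The replicate numbers did not pair the libraries (correlations of same-numbered libraries from -0.158 to 0.129, none best with its own number), and the replicate block called 6481 genes and 14 repair genes, 8 higher and 6 lower, without Parp2. Under upper quartile scaling 54.7% of calls were higher. Lig4 and Palb2, with as few as 2 and 3 counts in a library, did not pass the count filter.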
